A study of Mus musculus with 6 samples.

Results

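The genes described here encode 10 phosphatases that remove phosphate from MAP kinases: Dusp1, Dusp2, Dusp3, Dusp4, Dusp5, Dusp6, Dusp7, Dusp8, Dusp10 and Dusp16. They were chosen by gene name among the 41921 rows of the deposited count table, and all 10 names had a row. The family was taken up with earlier results of these data in view, in which Dusp1 and Dusp6 were already known to be higher with albiflorin and Dusp4 not to pass the test. The differences between the groups are therefore given as a description for every member, without a p-value. Of the 10 members, 9 passed the filter on low counts, which 13158 rows of the table passed, and Dusp8 did not.

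MAP kinases carry signals from receptors such as RANK, the receptor of RANKL. Apart from a few atypical ones, they are active only while a threonine and a tyrosine in their activation loop are both phosphorylated. Dual-specificity phosphatases remove both phosphates and so end the signal. Many of their genes are themselves transcribed in response to MAP kinase activity, which makes them a negative feedback. In osteoclast precursors the ERK, JNK and p38 kinases act downstream of RANK.

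RNA was sequenced from RAW264.7 cells, a wild-type mouse monocyte and macrophage line that forms osteoclast-like cells under RANKL. Going by the labels, 3 libraries belong to RANKL and 3 to albiflorin, a plant compound found in peony. For all 6 the protocol gives RANKL at 50 ng/mL from 3 days past confluence as the differentiation stimulus; the sources used here do not give albiflorin's dose and time, or whether its cells had RANKL as well beyond that protocol. The series title names the Rap1a and ERK pathway. The groups are called RANKL and albiflorin after their labels. Whether the 3 libraries of a group came from separate cultures is not stated, so p-values measure the spread between libraries, which may be technical.

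The libraries held 13673284 to 15489482 counts. Of 10 macrophage markers 9 had a row, and their summed level was 3914 to 4209 CPM (counts scaled to library depth) with RANKL and 4039 to 4216 with albiflorin. Of the 8 tested, Spi1 (0.31) and Cd14 (0.26) were higher with albiflorin and Adgre1 (-0.30) was lower on the log2 scale (edgeR adjusted p = 0.00232, 0.0119 and 0.00933). With the mRNA-length trend removed Spi1 and Adgre1 were still called (edgeR adjusted p = 0.0169 and 0.0143) and Cd14 was not (0.305). Itgam had 1 count in RANKL replicate 1 and 0 elsewhere, and whether its row catches the reads of the gene was not checked. The 10 osteoclast markers summed to 142.0 to 150.2 CPM with RANKL and 144.2 to 153.1 with albiflorin, most of it Tnfrsf11a (87.1 and 80.6 CPM). The median log2 fold change of the 7 tested was 0.29, and 0.08 with the mRNA-length trend removed. Acp5 was called higher (0.29, edgeR adjusted p = 0.0371, and 0.624 with that trend removed). The other tested markers were not called: Mmp9 (0.48), Atp6v0d2 (0.37), Ocstamp (0.30), Dcstamp (0.05), Tnfrsf11a (-0.11) and Itgb3 (-0.75). Ctsk was at 0.457 ± 0.121 and 0.693 ± 0.200 CPM (SD, n = 3), and Calcr was at 0 in all 6 libraries. The 5 lymphocyte markers summed to at most 0.701 CPM in any library. The part of these markers in the differences of the phosphatase genes was not tested. In bulk RNA, fewer cells of a type and less RNA per cell cannot be told apart.

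Levels are compared between genes as deposited FPKM, which are counts scaled by the listed gene length and by library depth. The most abundant member in every library was Dusp3, at 31.7 ± 0.233 FPKM with RANKL and 25.7 ± 1.32 with albiflorin (SD, n = 3 per group, here and below). Dusp3 encodes VHR, a small atypical phosphatase that lacks the kinase-binding domain of the other members: its coding sequence in the principal GENCODE M21 transcript holds 185 codons, against 318 to 663 in the other 9. With RANKL the next were Dusp4 (17.1 ± 1.28 FPKM), a nuclear phosphatase, and Dusp6 (14.8 ± 0.528 FPKM), the cytoplasmic ERK phosphatase MKP-3. Dusp7, its close relative, stood at 9.33 ± 0.453 FPKM. Dusp16 (3.48 ± 0.169), Dusp1 (2.95 ± 0.398), Dusp2 (2.87 ± 0.242), Dusp10 (1.805 ± 0.107) and Dusp5 (0.935 ± 0.151) followed.

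**Figure D1:**
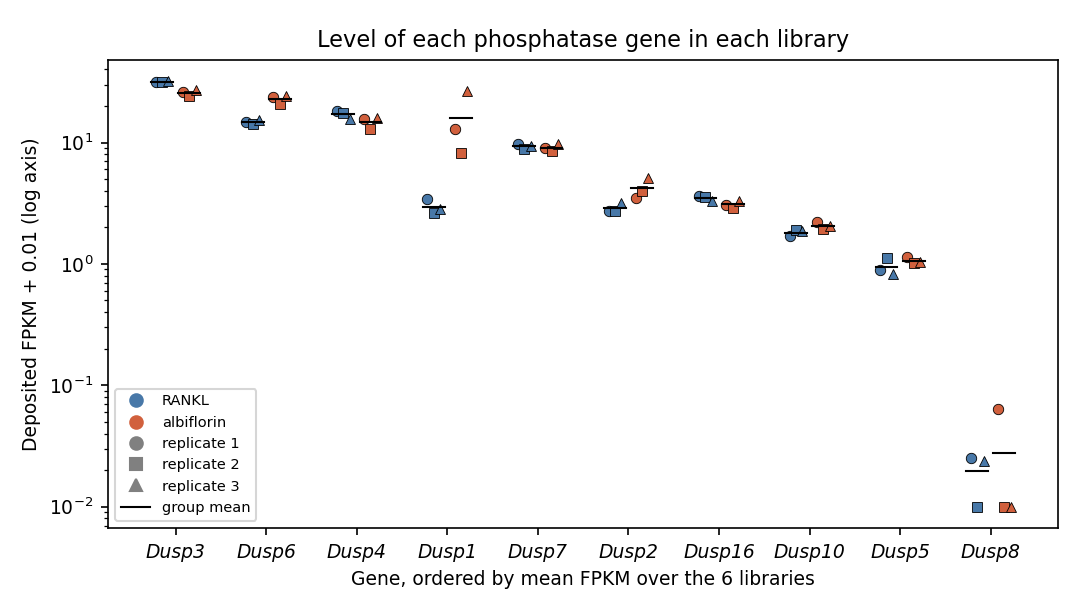
Deposited FPKM plus 0.01 (log axis) of each of the 10 genes in each of the 6 libraries; colours mark the groups, symbols the replicates, and black lines the group means. Dusp3 is highest in every library, and Dusp1 spans from 2.61 FPKM in RANKL replicate 2 to 26.8 in albiflorin replicate 3.

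The order was the same in all 6 libraries for 5 of the 9 neighbouring pairs of the mean order: Dusp3 over Dusp6, Dusp7 over Dusp2, Dusp16 over Dusp10, Dusp10 over Dusp5, and Dusp5 over Dusp8. Each of these 5 gave p = 0.03125 in an exact two-sided sign-flip permutation test over the 6 libraries, the smallest p that 6 libraries allow, and p = 0.05625 after Benjamini-Hochberg adjustment over the 9 pairs. None of the 9 pairs thus passed 0.05 after adjustment. The smallest of these 5 differences was that between Dusp3 and Dusp6, at 0.63 ± 0.51 on the log2(FPKM + 0.1) scale. The other 4 pairs did not keep 1 order over the 6 libraries (adjusted p in the exact permutation test 0.362 for Dusp6 and Dusp4, 0.188 for Dusp4 and Dusp1, 0.457 for Dusp1 and Dusp7, and 0.688 for Dusp2 and Dusp16), but this test pools groups whose orders differ. In all 3 RANKL libraries Dusp4 was above Dusp6 and Dusp1, Dusp7 above Dusp1, and Dusp16 above Dusp2. In all 3 albiflorin libraries Dusp6 was above Dusp4 and Dusp2 above Dusp16. There Dusp1 was above Dusp7 in replicates 1 and 3, and above Dusp4 in replicate 3. Dusp1 is the member that moved most in this order, at rank 6 or 7 in the RANKL libraries and at rank 4, 5 and 2 in albiflorin replicates 1, 2 and 3.

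Dusp8, a phosphatase of JNK and p38, was nearly undetected. It had 1, 0 and 1 counts in the RANKL libraries and 4, 0 and 0 in the albiflorin libraries. A count of 0 allows up to 3 counts, or 0.191 to 0.223 CPM at these depths, so the libraries do not show a difference for Dusp8 in either direction. This limit covers counting error only.

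Between the groups, 3 of the 9 tested members were higher with albiflorin and 1 was lower by the threshold used over the whole table (edgeR quasi-likelihood test, Benjamini-Hochberg adjusted p under 0.05 over 13158 genes). In that comparison 12.4% of all tested genes were called higher and 11.4% lower. Because the family was taken up with this comparison known, nothing is read from its count. The members called higher were Dusp1, Dusp6 and Dusp2, and the one called lower was Dusp3. The libraries of the groups did not overlap for 4 members that were higher (Dusp1, Dusp2, Dusp6 and Dusp10) and 1 that was lower (Dusp3), against 20.8% and 19.3% of all tested genes. The median log2 fold change, albiflorin over RANKL, was 0.18 for the 9 members and 0.01 for all tested genes.

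**Figure D2:**
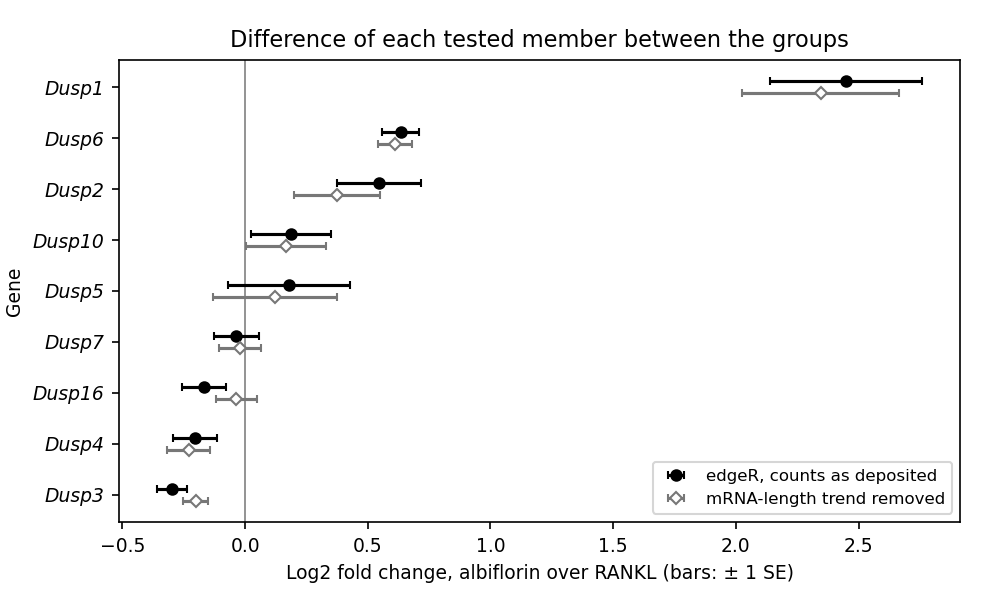
Log2 fold change (albiflorin over RANKL) with 1 SE on either side for the 9 tested genes, from edgeR on the deposited counts (filled circles) and with a per-library trend on mRNA length removed (open diamonds). Dusp1 stands at 2.45, and the other 8 genes lie between -0.30 and 0.63.

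Dusp1 encodes MKP-1, a nuclear phosphatase of p38, JNK and ERK whose gene is transcribed within minutes of many stimuli. In the count table it is MGP_C57BL6NJ_G0023805 on chromosome 17, 26736332 to 26739261, minus strand, in the coordinates of that table. Its level was 9.17, 7.07 and 7.69 CPM in the RANKL libraries and 35.4, 22.2 and 72.6 CPM in albiflorin replicates 1, 2 and 3. Every albiflorin library was thus above every RANKL library, and the 3 albiflorin libraries were far apart from each other. The log2 fold change was 2.45 ± 0.309 (SE), a 5.46-fold difference, and only 3 of the 13158 tested genes had a larger increase. Without albiflorin replicate 3 the log2 fold change was 1.86, and Dusp1 was still past the threshold.

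The spread of Dusp1 was larger in the albiflorin group. Its SD of log2 CPM was 0.86 among the albiflorin libraries and 0.19 among the RANKL libraries, and its SD within groups, 0.62 when pooled, exceeded that of each of the 200 tested genes nearest to it in level, whose median was 0.14. None of the other tested members did so. The number of these neighbours that were more variable was 23 of 200 for Dusp4, 75 for Dusp2, 111 for Dusp6, 144 for Dusp7, 157 for Dusp3 and for Dusp16, 169 for Dusp5 and 191 for Dusp10. Dusp10, Dusp5, Dusp3, Dusp16, Dusp7 and, narrowly, Dusp6 therefore varied less between replicates than most genes of like level.

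Among 10219 genes with a mean of at least 5 CPM, the 5 with the profile nearest to that of Dusp1 over the 6 libraries were Zfp36, Egr1, Jun, Rgs1 and Ier2. Likeness was the root-mean-square distance of log2 CPM after subtracting each gene's own mean. It was 0.52 for Zfp36, whose product destabilises mRNAs, 0.65 for the transcription factor gene Egr1, 0.66 for the AP-1 gene Jun, 0.67 for Rgs1, a regulator of G-protein signalling, and 0.67 for the immediate-early gene Ier2. In all 5, as in Dusp1, albiflorin replicate 3 was the highest library and replicate 2 the lowest of its group. The 5 were picked for likeness to Dusp1 over these same 6 libraries, so this shared order follows in part from the choice. Egr1 was at 48.6, 34.5 and 102.9 CPM in albiflorin replicates 1, 2 and 3. It was at 27.5 to 28.3 CPM in the RANKL libraries.

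**Figure D3:**
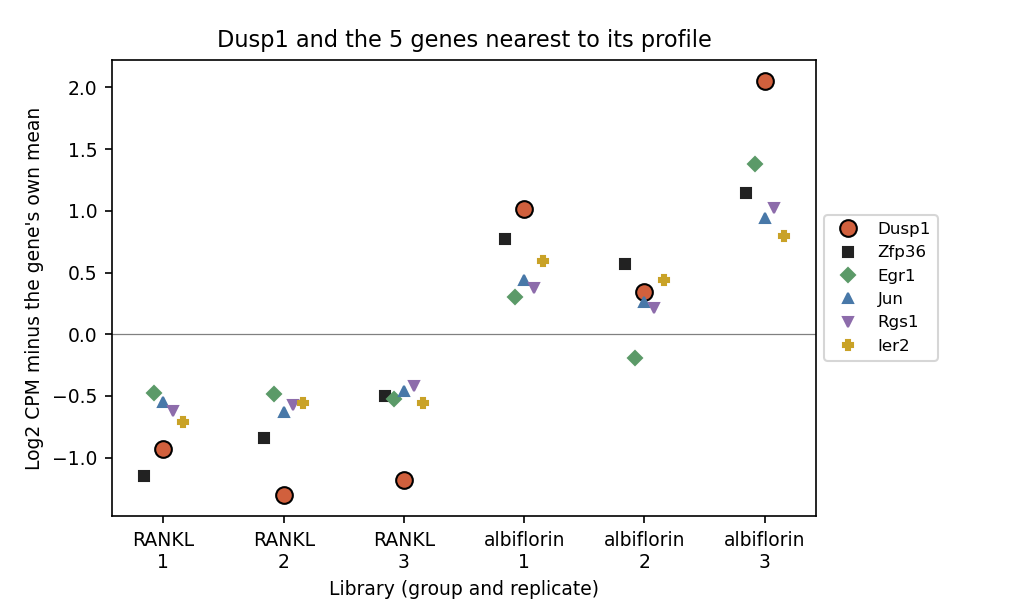
Log2 CPM minus the gene's own mean over the 6 libraries for Dusp1 and the 5 genes with the nearest profiles; each symbol is 1 gene in 1 library, shifted sideways for legibility. In all 6 genes albiflorin replicate 3 is the highest library and albiflorin replicate 2 the lowest of its group. The 5 were picked for likeness to Dusp1 over these libraries, so the shared order follows in part from the choice.

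Promoter letters are shown for the 3 genes higher with albiflorin and for Dusp5, the member with a serum response motif. The RefSeq promoter table (GRCm38.p6) had an entry for 9 of the 10 members; Dusp4 had none. Each line gives the 250 bases before the listed start, 5′ to 3′ on the gene's strand, with every motif match in capitals. Dusp1 lies at chr17:26508473-26508722 (minus strand), Dusp2 at chr2:127335909-127336158 (plus), Dusp6 at chr10:99262981-99263230 (plus) and Dusp5 at chr19:53528895-53529144 (plus).
Dusp1: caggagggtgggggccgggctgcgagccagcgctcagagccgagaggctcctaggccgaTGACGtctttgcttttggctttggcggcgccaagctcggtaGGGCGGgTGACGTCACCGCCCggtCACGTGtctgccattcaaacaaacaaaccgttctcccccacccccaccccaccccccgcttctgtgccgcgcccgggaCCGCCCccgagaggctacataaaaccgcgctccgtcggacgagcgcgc
Dusp2: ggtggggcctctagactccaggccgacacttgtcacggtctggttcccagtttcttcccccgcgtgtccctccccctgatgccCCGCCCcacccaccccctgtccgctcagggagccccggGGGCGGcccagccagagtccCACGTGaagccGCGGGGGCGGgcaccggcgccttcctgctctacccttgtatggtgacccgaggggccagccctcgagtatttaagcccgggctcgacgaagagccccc
Dusp6: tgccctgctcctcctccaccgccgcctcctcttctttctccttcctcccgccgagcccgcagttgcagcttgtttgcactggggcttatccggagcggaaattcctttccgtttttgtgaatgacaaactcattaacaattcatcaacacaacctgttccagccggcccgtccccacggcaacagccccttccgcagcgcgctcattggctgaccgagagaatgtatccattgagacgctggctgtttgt
Dusp5: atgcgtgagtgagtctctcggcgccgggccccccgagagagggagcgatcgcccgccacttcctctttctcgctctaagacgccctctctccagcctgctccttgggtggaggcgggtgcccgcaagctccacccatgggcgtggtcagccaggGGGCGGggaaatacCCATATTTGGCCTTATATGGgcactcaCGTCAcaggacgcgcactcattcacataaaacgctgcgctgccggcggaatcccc

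The motifs searched on both strands were the cyclic AMP response element (CRE, TGACGTCA) and its core (TGACG, which every CRE holds), AP-1 (TGANTCA), SP1 (GGGCGG), Egr (GCGNGGGCG, which can overlap SP1), the E-box CACGTG, the TATA box TATAAA, the CArG box bound by serum response factor, and the kB site. The Dusp1 promoter held a full CRE 143 to 136 bases before the start, which lay between 2 SP1 matches, a second CRE core at 191 to 187 and an E-box at 126 to 121. A full CRE was present in 1.55% of the 32851 promoters of the table, the core in 17.8% and the E-box in 6.02%. Among the 9 members with an entry, the only other with a full CRE was Dusp8, which held 2 of them and was nearly undetected in these libraries. Dusp2 shared the E-box (109 to 104) and had an Egr match (98 to 90; 4.70% of promoters).

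Dusp6 and Dusp7 held no match to any of the 9 motifs. Dusp5 held 2 CArG boxes in a row, at 82 to 73 and 72 to 63 bases before the start, a motif present in 1.47% of promoters. SP1 was found in 7 of the 9 members, and in 32.7% of all promoters. The 9 member promoters held 56.4% to 77.2% G and C, above the median of 52.4% for all promoters searched, so the shares for G- and C-rich motifs come from a background of lower GC content. AP-1 (6.75% of promoters), the kB site (5.93%) and the TATA box (12.4%) were found in none of the 9. A match is only a run of letters, and its absence says only that these letters are not in this window.

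**Figure D4:**
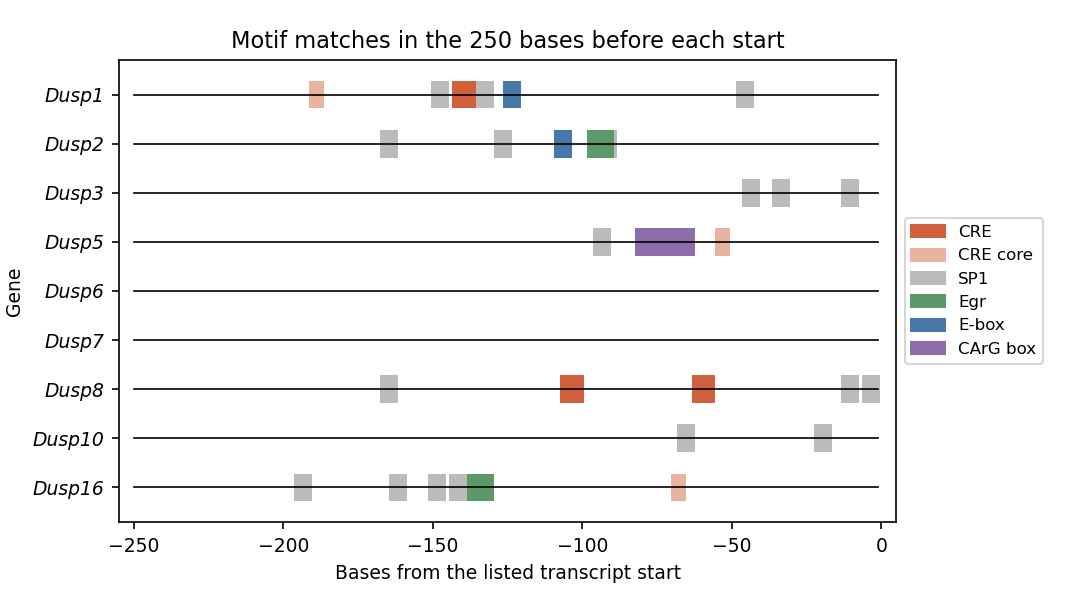
Positions of motif matches in the 250 bases before the listed start of the 9 members with a promoter entry, in bases from the start (x axis); each coloured block is a match, drawn to scale. Full CREs appear in Dusp1 and Dusp8, CArG boxes in Dusp5, and Dusp6 and Dusp7 have no match.

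Dusp2 encodes PAC-1, a nuclear phosphatase of blood cells that acts on ERK and p38 (MGP_C57BL6NJ_G0026877, chromosome 2, 134715791 to 134718008, plus strand). It was at 5.50, 5.48 and 6.34 CPM with RANKL and at 6.99, 8.03 and 10.3 CPM with albiflorin. The groups did not overlap, and albiflorin replicate 3 was again the highest. The log2 fold change was 0.55 ± 0.172, or 1.46-fold. Dusp2 was close to the threshold: it was no longer past it under 8 of 16 other settings, among them without RANKL replicate 1 (log2 fold change 0.515), RANKL replicate 2 (0.509) or albiflorin replicate 3 (0.375) and with the mRNA-length trend removed (0.375).

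The profile of Dusp2 lay nearest to those of Zfp51 (distance 0.05), a zinc finger gene, Jund (0.10), an AP-1 subunit, AK010878 (0.10), an unnamed locus MGP_C57BL6NJ_G0040326 (0.12) and Ift27 (0.13). Dusp1 was not among them. The distance depends on the size of the changes, so this does not show that the shapes of the 2 profiles differ. The range of log2 CPM over the 6 libraries was 3.33 for Dusp1 and 0.90 for Dusp2. The 3 RANKL libraries of Jund were at 37.2, 36.7 and 37.98 CPM and its albiflorin libraries at 48.6, 50.5 and 58.0 CPM.

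Of the other nuclear members, Dusp4 encodes MKP-2 (MGP_C57BL6NJ_G0034027, chromosome 8, 34640937 to 34653507, plus strand). It was at 49.7, 48.2 and 43.0 CPM with RANKL and 42.9, 35.4 and 43.9 CPM with albiflorin. The groups overlapped, and the log2 fold change was -0.20 ± 0.0903, not past the threshold. Only with the gene-length trend removed was it past it (-0.29). Dusp5, which encodes a nuclear phosphatase selective for ERK (MGP_C57BL6NJ_G0025661, chromosome 19, 54972444 to 54988696, plus strand), was low, at 2.02 to 2.74 CPM with RANKL and 2.53 to 2.84 CPM with albiflorin. With 30 to 43 counts a library its log2 fold change of 0.18 ± 0.249 was smaller than its SE. The nuclear class therefore held 1 large increase, 1 small one and 2 members that did not pass, of which 1 had a negative and 1 a positive difference.

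The increase of Dusp6 was small but even across libraries. Its product is a cytoplasmic phosphatase selective for ERK, and the gene is a common readout of ERK activity (MGP_C57BL6NJ_G0018085, chromosome 10, 104566711 to 104570968, plus strand). Its level was 41.7, 40.1 and 43.2 CPM with RANKL and 66.8, 59.1 and 67.9 CPM with albiflorin. The lowest albiflorin library was well above the highest RANKL library, and the spread within groups was small beside the gap. The log2 fold change was 0.63 ± 0.0748, or 1.55-fold, and it stayed between 0.55 and 0.69 under the 16 other settings. Neither ERK phosphorylation nor phosphatase activity was measured here.

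Dusp7 encodes the other cytoplasmic ERK phosphatase of the set (MGP_C57BL6NJ_G0035720, chromosome 9, 111141830 to 111159525, plus strand). It was at 27.4, 24.9 and 26.6 CPM with RANKL and 25.4, 23.9 and 27.6 CPM with albiflorin, and the groups overlapped. The log2 fold change was -0.04 ± 0.0911. Dusp6 and Dusp7 thus stood 0.63 and -0.04 apart from their RANKL levels on the log2 scale; the difference between the genes was not tested.

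Among the phosphatases directed at JNK and p38, Dusp10 (MKP-5; MGP_C57BL6NJ_G0017306, chromosome 1, 196756655 to 196830431, plus strand) was at 5.14, 5.73 and 5.67 CPM with RANKL and 6.73, 5.87 and 6.26 CPM with albiflorin. The libraries did not overlap, but the gap was small and the log2 fold change of 0.19 ± 0.163 was not past the threshold. Dusp16 (MKP-7; MGP_C57BL6NJ_G0031849, chromosome 6, 142772733 to 142861176, minus strand) was at 28.3, 27.7 and 25.8 CPM and at 24.1, 22.7 and 25.9 CPM, with a log2 fold change of -0.17 ± 0.0902, also not past it. The groups of Dusp16 overlapped by a single library, albiflorin replicate 3.

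Dusp3 was the one member called lower. Its product acts on ERK and JNK and on other phosphoproteins (MGP_C57BL6NJ_G0019606, chromosome 11, 108184861 to 108200705, minus strand). The RANKL libraries were at 148.0, 148.0 and 150.1 CPM and the albiflorin libraries at 121.9, 114.5 and 126.3 CPM. The RANKL libraries were nearly equal and all lay above the highest albiflorin library. The log2 fold change was -0.30 ± 0.0602, a 1.23-fold lower level, with 1540 to 2323 counts a library behind it.

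Summed over the 10 genes, the family stood at 84.1 to 86.5 FPKM with RANKL and at 97.1, 84.4 and 115 FPKM with albiflorin. Albiflorin replicate 2 was therefore within the RANKL range. Dusp1 made up 3.11% to 3.92% of the summed FPKM with RANKL and 13.4%, 9.68% and 23.3% with albiflorin. The share of Dusp3 was 36.5% to 37.9% with RANKL and 23.4% to 28.8% with albiflorin. In albiflorin replicate 3, Dusp1 at 26.8 FPKM and Dusp3 at 26.9 FPKM were nearly level, whereas in RANKL replicate 2 they were at 2.61 and 31.6 FPKM. The cytoplasmic pair Dusp6 and Dusp7 together held 24.2 ± 0.896 FPKM with RANKL and 32.01 ± 2.37 with albiflorin, and the JNK and p38 directed genes held 5.29 ± 0.133 and 5.16 ± 0.307.

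**Figure D5:**
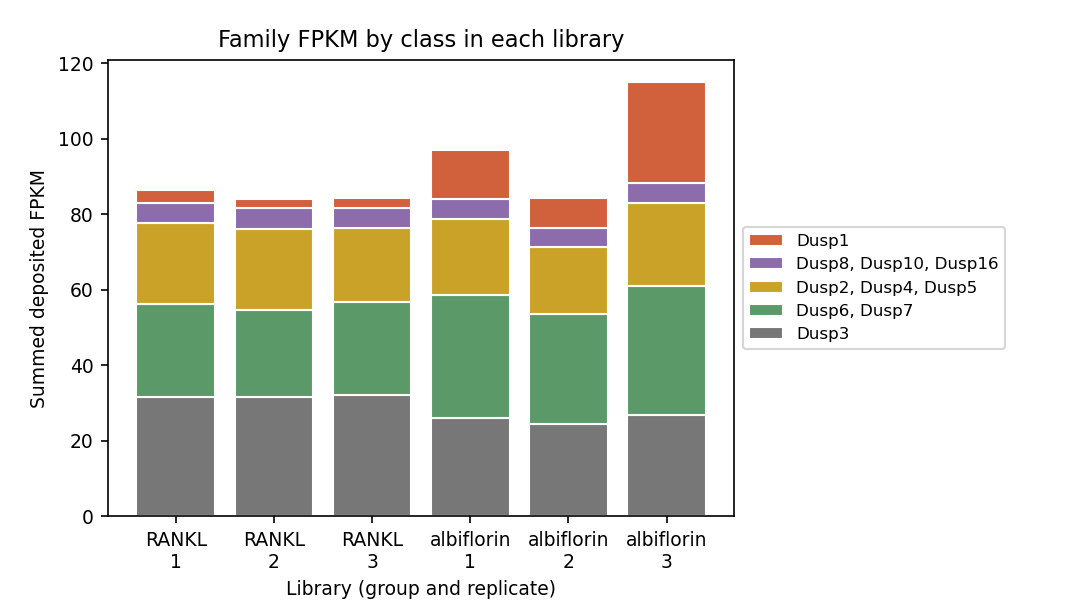
Summed deposited FPKM of the 10 genes in each library, stacked by class with Dusp1 shown apart from the other nuclear genes; the bars start at 0. The Dusp1 segment is 2.61 to 3.39 FPKM with RANKL and 8.17 to 26.8 with albiflorin, and the Dusp3 segment is shorter in all 3 albiflorin libraries.

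The members also differ in length, and removing a per-library trend of log2 CPM on mRNA length lowered the number of genes called higher from 1631 to 651 and lower from 1496 to 701. The mRNA of the principal GENCODE M21 transcript was 1617 nt for Dusp2 and 1990 nt for Dusp1, the shortest of the 10, and 4445 nt for Dusp3 and 5104 nt for Dusp16. The median over 10113 tested protein-coding genes with a 3′ UTR of at least 100 nt was 3063 nt. With the trend on mRNA length removed, 2 members were higher (Dusp1 at 2.35 and Dusp6 at 0.61) and Dusp3 was still lower (-0.20), against 4.95% and 5.33% of all tested genes. Dusp2 (0.375) was then not past the threshold, and Dusp16 moved from -0.17 to -0.04. The part of length in these differences was not tested beyond this removal.

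Dusp1 and Dusp2 stood out in their 3′ UTRs as well, in the density of a pentamer. The pentamer ATTTA, the core of AU-rich elements that shorten the life of an mRNA, occurred 4 times in the 690 nt of Dusp1 and 4 times in the 581 nt of Dusp2, or 5.80 and 6.88 per kilobase. The median of the tested genes was 1.32 per kilobase, and 95.6% and 97.1% of them had a lower density than Dusp1 and Dusp2. Dusp10 held 2.70 per kilobase, Dusp8 2.11, Dusp16 1.24, Dusp3 1.11, Dusp5 0.902 and Dusp6 0.841. Dusp4 had 2 in 1111 nt, and Dusp7 had none in 1778 nt. By count Dusp1 and Dusp2 did not stand out, since Dusp3 had 4 in 3591 nt and Dusp8 had 5 in 2370 nt. mRNA stability was not measured in these libraries.

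MAP kinases are the family that holds the substrates of these enzymes, and the list also counts atypical kinases such as Mapk6 and Nlk. Of 10 tested MAP kinase genes 1 was higher and 2 were lower, with a median log2 fold change of -0.02 beside 0.01 for all tested genes, of which 12.4% were higher and 11.4% lower. Mapk14, which encodes p38α, fell (244.0 ± 7.05 CPM with RANKL, 205.1 ± 7.96 CPM with albiflorin; -0.25 ± 0.0593 on the log2 scale, edgeR quasi-likelihood test, adjusted p = 0.00664), also with the length trend removed (-0.21, adjusted p = 0.0134). Mapk11, encoding p38β, rose (0.35 ± 0.110, edgeR adjusted p = 0.0287), and the atypical kinase gene Mapk6 fell (-0.25 ± 0.0810, edgeR adjusted p = 0.0319). Neither of these calls held with the trend removed (edgeR adjusted p = 0.0876 and 0.112). The ERK gene Mapk3 (0.15, edgeR adjusted p = 0.0798) and the JNK genes Mapk8 (-0.02, 0.888) and Mapk9 (-0.02, 0.817) did not pass.

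Upstream kinases and their adaptors held 1 higher and 9 lower of 29 tested genes (median log2 fold change -0.09). Map3k1 (-0.34 ± 0.0622), Taok2 (-0.32 ± 0.0611) and Taok1 (-0.56 ± 0.121), all kinases that feed JNK or p38, had the smallest p (edgeR adjusted p = 0.00153, 0.00196 and 0.00378). The one higher was Map3k8, which encodes a kinase upstream of ERK in macrophages (0.29, edgeR adjusted p = 0.0421). With the length trend removed 0 were higher and 2 lower, among them Taok2, and Map3k1 (edgeR adjusted p = 0.104) and Taok1 (0.121) were not called. The kinases activated by MAP kinases held 0 higher and 3 lower of 10 (median -0.15): Rps6ka1 (-0.24 ± 0.0678, edgeR adjusted p = 0.0190), Rps6ka2 (-0.76 ± 0.236, 0.0283) and Rps6ka3 (-0.22 ± 0.0705, 0.0323), which encode RSK kinases downstream of ERK. With the trend removed Rps6ka1 alone was called (0.0235).

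Of 20 tested transcription factors phosphorylated along these pathways 1 was higher, Jund (0.49 ± 0.0805, edgeR adjusted p = 0.000746), and 3 were lower, with a median of -0.07. The 3 were the MEF2 genes Mef2d (-0.26 ± 0.0645, adjusted p = 0.00818), Mef2c (-0.23 ± 0.0671, 0.0210) and Mef2a (-0.20 ± 0.0628, 0.0280), which encode targets of p38 and of ERK5. The same 4 calls were made with the length trend removed. The list does not hold Jun, an AP-1 gene whose product JNK phosphorylates. Jun (1.12 ± 0.126 on the log2 scale) is described above, where it was picked for likeness to Dusp1 over these same libraries. Its direction therefore follows in part from that choice and adds nothing to the count of this list.

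Other enzymes that dephosphorylate MAP kinases held 0 higher and 1 lower of 11 (median -0.02). With the length trend removed 2 were higher, Ppm1a (0.28, edgeR adjusted p = 0.00519) and Ppp2ca (0.31, edgeR adjusted p = 0.00475), and 1 lower. The one called lower in both was Ptpn7, which encodes the haematopoietic tyrosine phosphatase of ERK and p38 and fell (128.8 ± 2.43 CPM with RANKL, 109.4 ± 5.03 CPM with albiflorin; -0.24 ± 0.0603, edgeR adjusted p = 0.0102). Dual-specificity phosphatases outside the 10 held 0 higher and 1 lower of 11 (median -0.02), the cofilin phosphatase gene Ssh1 (-0.37 ± 0.0926, edgeR adjusted p = 0.00950), which did not pass with the trend removed (0.354); Dusp11, at -0.02, was then called higher (0.17, adjusted p = 0.0416). Sprouty and Spred genes, other feedback inhibitors of the ERK pathway, held no called gene among 4 tested (edgeR; 0 of the 4 had an unadjusted p under 0.05, and DESeq2 called 0). Spred1 was at -0.05 and Spry2 at 0.23, and Spry1 was at 0 in all 6 libraries.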

How the data were processed

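RNA of 6 RAW264.7 libraries, 3 labelled RANKL and 3 albiflorin, was analysed from 2 deposited tables. The deposited count table holds whole-number reads per gene, and the deposited FPKM table holds the authors' FPKM values, that is, counts scaled by gene length and library depth. The submitters' processing notes name HISAT2 2.2.1, fastp, featureCounts 2.0.6-p3, CASAVA 1.8 and also DESeq2 1.42.0, without saying what each did. The sources used here give neither the build nor any use of strand. Gene identifiers in the table carry the prefix MGP_C57BL6NJ, and gene coordinates are those of the table; promoter coordinates are GRCm38.p6 and are not on that scale.

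The whole table was fitted with edgeR 4.0.16 (R 4.3.3): filterByExpr, TMM, quasi-likelihood F-test on group, Benjamini-Hochberg over 13158 genes. CPM use TMM-scaled library sizes, and the SE was taken as the size of the fold change (log2) over the root of F. log2 CPM used a prior count of 2. Scripts were tested on simulated data.

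The members and all gene lists were chosen with earlier results of these data known. Named genes were all members, set MAP kinase genes, the called genes of smallest p in each list (at most 3), and the 5 genes nearest in profile to the 2 members of widest range; Map3k8, Ppm1a, Ppp2ca, Dusp11 and the markers were named after their values were seen, as were Egr1 and Jund for values by library.

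Alternatives were RLE scaling, DESeq2, limma-voom (limma 3.58.1), no filter and at least 5 CPM in 3 libraries, the replicate block, each library left out, log2(FPKM + 1) and log2(FPKM + 0.1), and lowess trends (span 0.3, fitted over log2 CPM of 3) on gene length or mRNA length. An mRNA length (GENCODE M21, by symbol) was found for 81.13% of tested genes; the others took the listed gene length. Protein sequences were not used here, and some genes that the rule names are not reported here.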

Additional observations from a re-analysis of the deposited data

How the results depend on the processing

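With the mRNA-length trend removed 651 genes were called higher and 701 lower, in place of 1631 and 1496; with the gene-length trend removed 945 were higher, and 2 members were lower, Dusp3 and Dusp4. The test on log2(FPKM + 1) called 901 genes lower and that on log2(FPKM + 0.1) 909. Leaving out each library in turn gave 984 to 1753 genes higher and 914 to 1644 lower; the lowest were without albiflorin replicate 1 (984 higher) and without RANKL replicate 2 (914 lower). Dusp7 changed sign without albiflorin replicate 2 (log2 fold change 0.00699); its lowest value with a library left out was -0.092 (without albiflorin replicate 3). With the replicate block 1358 genes were higher and 1214 lower, and 3 members higher and 1 lower; same-numbered libraries did not deviate together (correlations 0.0219, -0.0433 and -0.0664), and 1 of 3 RANKL libraries lay closest to its own number. Dusp1, Dusp3 and Dusp6 kept direction and side of the threshold under all 16 alternatives, and Dusp2 under 8. The causes were not tested. Counts limit Dusp5 and Dusp8.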

Other observations

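Dusp9, a phosphatase gene left out of the 10, had 1, 10 and 1 counts in the RANKL libraries and 2, 8 and 9 in the albiflorin libraries. It did not pass the filter on low counts.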
